A study of Mus musculus with 9 samples.

Results

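The 3 TGF-beta ligand genes (Tgfb1, Tgfb2, Tgfb3), the 4 latent TGF-beta binding protein genes (Ltbp1, Ltbp2, Ltbp3, Ltbp4) and Adamtsl2 were followed through the hearts of mice with a premature stop codon in Mybpc3, with and without base editing. These are 8 of the 15779 genes in the deposited tables. Tgfb1, Tgfb2, Tgfb3, Ltbp1, Ltbp3 and Ltbp4 were taken as members of the family. Ltbp2 and Adamtsl2 were taken partly because their values stayed high after treatment, so for both genes the values are a description, with no test.

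RNA was taken from the hearts of adult C57BL/6J mice in 3 groups of 3 libraries. Wild-type mice (Mybpc3wt) that received saline were one group, Mybpc3R946X/R946X mice that received saline (saline mutants) another, and Mybpc3R946X/R946X mice that received high-dose-exABE8e (treated mutants) the last. Both mutant groups are homozygous for the stop codon in Mybpc3, which encodes cardiac myosin-binding protein C of the sarcomere. The study made adenine base editors, which turn an A into a G at a guided site, and used the viral vector AAV9 to express them in cardiomyocytes. The labels name the treatment exABE8e without defining it further, give no dose, sex or exact age, and do not say whether a library is 1 mouse, so p-values measure the spread between these libraries, which may be partly technical. The treated group differs from the saline mutants by the vector and the editor together, and no library of an untargeted vector was analysed here.

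TGF-beta is made as a precursor whose propeptide stays wrapped around the growth factor and keeps it inactive. The propeptide is usually bound to a latent binding protein, which fixes the complex to fibrillin microfibrils of the extracellular matrix until integrins or proteases release the ligand. Released ligand signals through a pair of receptor kinases and SMAD proteins, and in heart it is known for driving fibroblasts towards matrix production. LTBP1, LTBP3 and LTBP4 carry latent TGF-beta, whereas LTBP2 binds fibrillin but not the latent complex. ADAMTSL2 is a secreted microfibril-associated glycoprotein without protease activity that binds LTBP1 and fibrillin.

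The promoter bases of Ltbp2 and Adamtsl2 are shown because these genes stayed high in treated hearts, and those of Tgfb2 because it was the ligand that rose in mutants. The Tgfb2 promoter was added after the values had been seen. Capitals mark CAGAC, a SMAD-binding element, or its reverse complement GTCTG. The sequences are from RefSeq on GRCm38.p6, read 5′ to 3′ on the strand of the gene and ending at or just before its start, at chr12:84876533-84876741 (minus strand) for Ltbp2, chr2:27079129-27079378 (plus strand) for Adamtsl2 and chr1:186705990-186706239 (minus strand) for Tgfb2.
Ltbp2: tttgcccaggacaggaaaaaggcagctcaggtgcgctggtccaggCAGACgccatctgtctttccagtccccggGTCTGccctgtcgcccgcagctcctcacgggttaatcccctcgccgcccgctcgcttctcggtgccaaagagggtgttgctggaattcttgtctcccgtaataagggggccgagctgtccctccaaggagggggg
Adamtsl2: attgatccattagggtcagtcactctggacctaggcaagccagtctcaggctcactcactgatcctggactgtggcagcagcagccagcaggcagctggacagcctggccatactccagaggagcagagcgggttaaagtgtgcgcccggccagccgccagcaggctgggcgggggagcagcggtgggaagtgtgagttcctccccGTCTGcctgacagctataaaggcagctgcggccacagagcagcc
Tgfb2: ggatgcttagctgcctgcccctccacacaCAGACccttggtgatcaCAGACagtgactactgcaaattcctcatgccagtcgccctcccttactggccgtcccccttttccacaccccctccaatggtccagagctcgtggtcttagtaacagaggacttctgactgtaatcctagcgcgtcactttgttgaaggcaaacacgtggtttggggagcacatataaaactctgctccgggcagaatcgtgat
Counted from the RefSeq start, the first base of the match lay at -221 and -204 in Tgfb2, at -205 and -176 in Ltbp2 and at -44 in Adamtsl2. The promoter table held 7 of the 8 genes, and Tgfb3 was not among them. Ltbp1 had a match in each of its 2 promoters and Ltbp3 had 1, while none was found for Tgfb1 or Ltbp4. CAGAC on either strand is common, and 42.2% of 32851 RefSeq promoters held it in the 250 bases before the start. Neither TGANTCA (AP-1; 6.75% of promoters), GGAATG (TEAD; 12.6%) nor the CArG box (1.47%), each searched on both strands, was found in the bases examined before the start of any of the 7 genes. A match is a description of the letters only.

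The values are whole numbers on a per-million scale that the labels do not name. Libraries summed to between 999152 and 999382, with 14151 to 14934 genes above 0, so sequencing depth is unknown. Mybpc3 was 1781 ± 265 (SD, n = 3) in wild type, 154 ± 28.4 in saline mutants and 1243 ± 191 in the treated hearts, which follows the labels. The 7 cardiomyocyte markers were above 0 in all 9 libraries. Summed fibroblast markers (7 of 7 above 0 in every library) were 1240 to 1650 in wild type, 1824 to 2964 in saline mutants and 1419 to 1810 in the treated hearts, with the highest sum in saline mutant replicate 3. Macrophage markers summed to 386 to 533, 413 to 793 and 402 to 525, and the 3 T cell markers in the tables to at most 2. Blood markers summed to 104 to 313 in wild type, 69 to 85 in saline mutants (2 of 5 called lower) and 140 to 158 in the treated group, and epicardial markers to 3 to 6, 8 to 16 (1 of 2 tested called higher) and 9 to 15. Of all genes tested, 7.7% were called between saline mutant and wild type (called is defined below). The epicardial sums are low. Of these markers 1 of 2 tested was also called higher in treated mutants against wild type, beside 0.989% of all genes called. The part of these markers in the results was not tested. Each group held 1 library with Xist (wild type replicate 1 at 119, saline mutant replicate 3 at 351 and treated replicate 1 at 39), and Xist was 0 in the other 6. The Y-linked Ddx3y was 0 in the first and second of these and 38 in treated replicate 1, which thus held both transcripts, and it was above 0 in the other 6 libraries. In bulk tissue, fewer cells of a type and less RNA per cell cannot be told apart.

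Genotype was compared in the saline groups, to ask what the Mybpc3 mutation changes. Of the 6 genes taken by family, Tgfb2 and Ltbp3 rose in saline mutants, and Tgfb1, Tgfb3, Ltbp1 and Ltbp4 did not pass the test. Here and below, called means a Benjamini-Hochberg adjusted p under 0.05 from limma, fitted across all genes on log2(value + 1), a scale that understates changes of low values. In this comparison 7.7% of all 13632 genes tested were called, 4.56% were called higher and 21.6% had groups that did not overlap. Against those shares stand 2 of the 6 called, both higher, and 4 of the 6 without overlap (Tgfb2, Tgfb3, Ltbp1 and Ltbp3). All 8 genes passed the filter on low values. Over the 6 taken by family the median log2 fold change was 0.45 beside 0.07 over all genes, with 5 of 6 above 0 beside 62.5% of all genes.

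**Figure D1:**
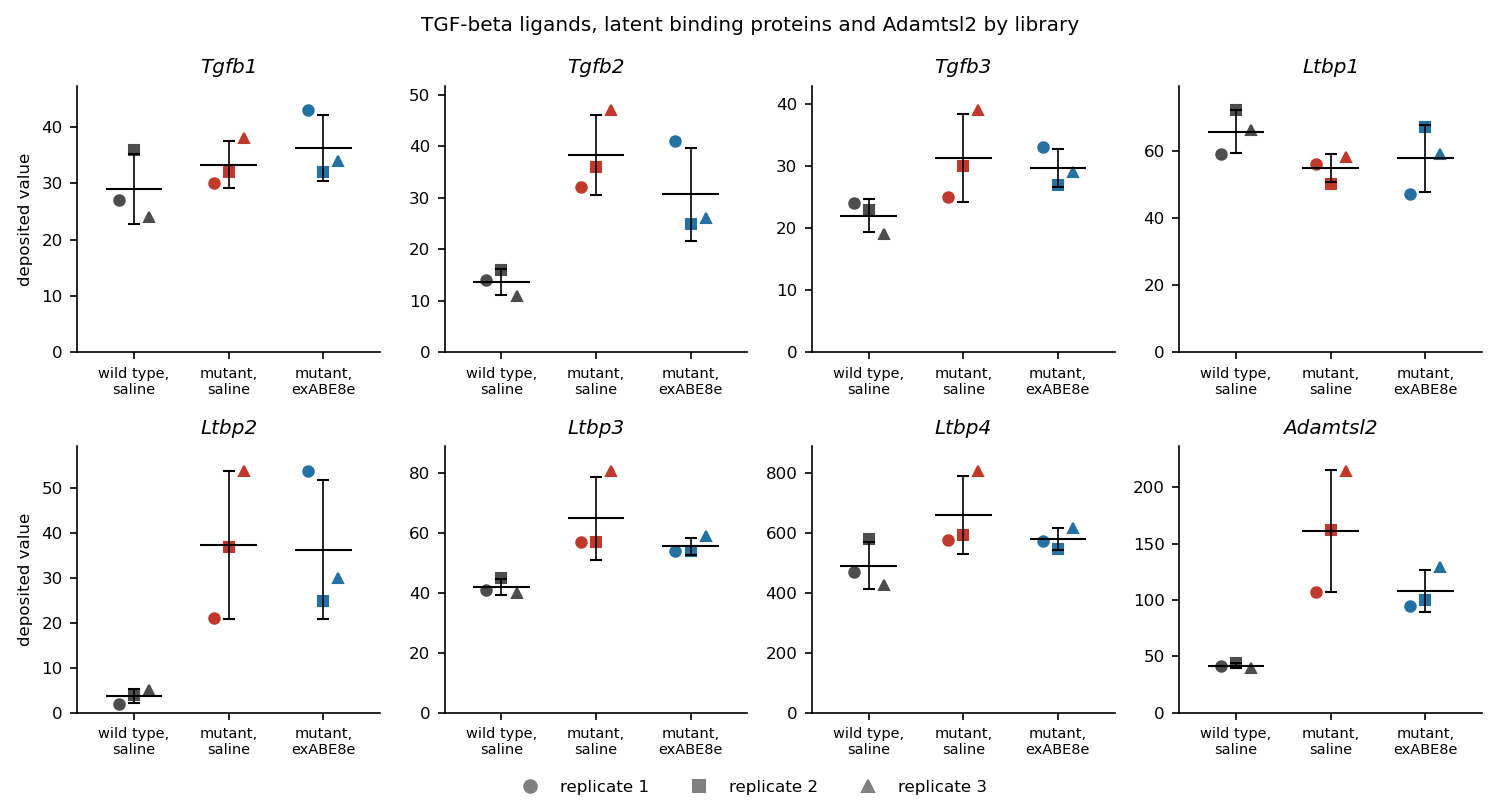
Deposited value of each of the 8 genes in each library (y axis, per-million scale, starting at 0), by group, with the group mean as a bar. Ltbp2 lies between 2 and 5 in wild-type hearts and between 21 and 54 in both mutant groups, while Tgfb1 overlaps across all 3 groups.

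Tgfb1, the ligand most studied in cardiac fibrosis, was 27, 36 and 24 in wild type, 30, 32 and 38 in saline mutants and 43, 32 and 34 in the treated hearts. The 3 groups overlapped. Its log2 fold change in saline mutants was 0.21 (SE 0.166, limma adjusted p 0.559).

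Tgfb2, a ligand needed for heart valve and septum development, was 14, 16 and 11 in wild type, and 32, 36 and 47 in saline mutants. Every saline mutant was thus higher than every wild-type library, by 2.80-fold in the means (13.7 ± 2.52 against 38.3 ± 7.77). The log2 fold change was 1.42 (SE 0.182, 95% interval 1.01 to 1.83, limma adjusted p 0.00219). The call was made in 18 of 18 alternative fits, with adjusted p from 0.000157 to 0.0208. Without the 3 libraries with Xist the log2 fold change was 1.29 (limma adjusted p 0.0201), when 4.07% of genes were called.

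Tgfb3, the remaining ligand, was 24, 23 and 19 in wild type and 25, 30 and 39 in saline mutants. The groups did not overlap, but by a gap of only 1 value unit, and the log2 fold change of 0.48 (SE 0.174) gave a limma adjusted p of 0.163. The Tgfb3 gene overlaps Ttll5 on the other strand, and the sources used here do not say whether counting used strand.

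**Figure D2:**
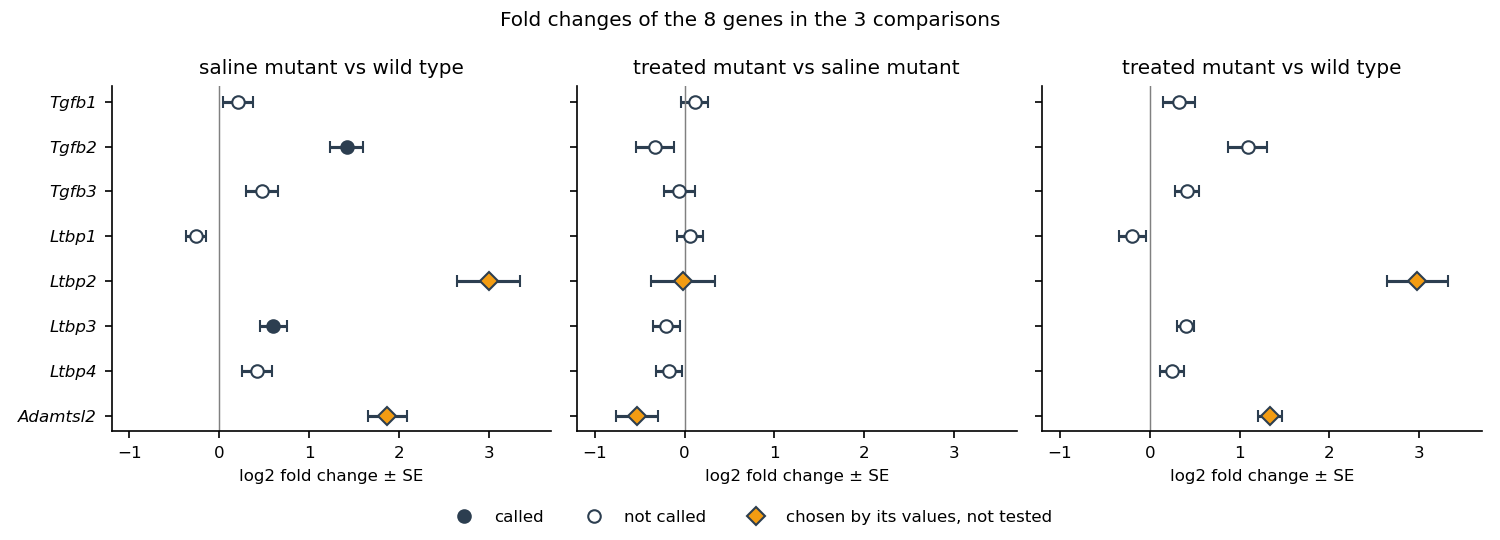
log2 fold change of each gene with its standard error (x axis), for the 3 comparisons of groups of 3 libraries. Filled points are called and diamonds are the genes chosen by their values; Tgfb2 (1.42) and Ltbp3 (0.60) are the filled points, both between saline mutant and wild type.

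The balance between the ligands differed between the groups. Within each library, Tgfb2 over Tgfb1 was 0.474 ± 0.0394 in wild type (SD, n = 3; 0.444 to 0.519), 1.14 ± 0.0865 in saline mutants (1.07 to 1.24) and 0.833 ± 0.105 in treated mutants (0.765 to 0.953). None of the 3 groups overlapped on this ratio, which was chosen after the values had been seen and was not tested. Tgfb3 over Tgfb1 was 0.773 ± 0.126, 0.932 ± 0.0966 and 0.821 ± 0.0469, and its groups did overlap.

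Ltbp1, the widely expressed carrier of latent TGF-beta, was 59, 72 and 66 in wild type and 56, 50 and 58 in saline mutants. Its log2 fold change of -0.26 (SE 0.115, limma adjusted p 0.260) was the only one of the 8 below 0. The groups did not overlap, although only 1 value unit separates them.

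Ltbp3, a carrier known for its part in bone and tooth growth, was 41, 45 and 40 in wild type and 57, 57 and 81 in saline mutants. It was higher in each saline mutant, by 1.55-fold in the means (42.0 ± 2.65 against 65.0 ± 13.9), with a log2 fold change of 0.60 (SE 0.150, 95% interval 0.258 to 0.942, limma adjusted p 0.0463). The call was made in 9 of 18 alternative fits. With wild type replicate 1, 2 or 3 left out the adjusted p was 0.149, 0.0701 or 0.150, with saline mutant replicate 2 or 3 left out it was 0.0838 or 0.0767, and without the 3 libraries with Xist it was 0.117.

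Ltbp4, whose product also takes part in elastic fibre assembly, was 468, 579 and 424 in wild type and 575, 591 and 807 in saline mutants. The groups overlapped by 1 library, and the log2 fold change of 0.42 (SE 0.164) gave a limma adjusted p of 0.198.

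Ltbp2, the latent binding protein that does not carry TGF-beta, was 2, 4 and 5 in wild type, 21, 37 and 54 in saline mutants and 54, 25 and 30 in the treated hearts. Every mutant library, treated or not, was higher than every wild-type library. The means were 3.67 ± 1.53, 37.3 ± 16.5 and 36.3 ± 15.5, so that saline mutants were at 10.2 times and treated mutants at 9.91 times the wild-type mean. The spread within each mutant group was wide, with the highest library above 2 times the lowest. At wild-type values this low the fold depends on the scale, and the log2 fold change of 3.0 (SE 0.353) in saline mutants became 2.23 with a pseudocount of 5. Without the 3 libraries with Xist the means were 4.5 and 29, a log2 fold change of 2.40.

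Adamtsl2 was 41, 44 and 40 in wild type, 107, 162 and 215 in saline mutants and 95, 100 and 129 in the treated hearts. Wild-type hearts were close together and each mutant library was above all of them. The means were 41.7 ± 2.08, 161 ± 54.0 and 108.0 ± 18.4, or 3.87 times the wild-type mean in saline mutants and 2.59 times in treated mutants. The log2 fold change in saline mutants was 1.87 (SE 0.218), and 1.63 without the 3 libraries with Xist.

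Saline mutant replicate 3 had the highest value in its group for 8 of the 8 genes. It held the highest value for 56.8% of all genes in that group, and it also had the highest fibroblast and macrophage marker sums, 2964 and 793. Mitochondrially encoded genes made up 17.0% of its values, the lowest share of the 9 libraries, where the highest was 24.1%. The part of the marker sums and of this share in these results was not tested. Tgfb2 and Ltbp3 were also called in the alternative fit without mitochondrially encoded genes. Without that library Tgfb2 remained called, and the 2 other saline mutants were at 32 and 36.

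Ratios among the binding proteins were also described by group. Ltbp3 over Ltbp1 was 0.642 ± 0.0468 in wild type, 1.18 ± 0.193 in saline mutants and 0.985 ± 0.172 in treated mutants, and both mutant groups lay above wild type without overlap. Ltbp4 over Ltbp1 was 7.47 ± 0.904, 12 ± 1.83 and 10.3 ± 2.03, where again no mutant library fell into the wild-type range of 6.42 to 8.04. Treated replicate 2, at 8.13, lay only just above that range, and neither Ltbp4 nor Ltbp1 was itself called. Ltbp2 over Ltbp1 was 0.0551 ± 0.0209, 0.682 ± 0.283 and 0.677 ± 0.414. These ratios too were chosen after the values had been seen, and they were not tested.

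**Figure D3:**
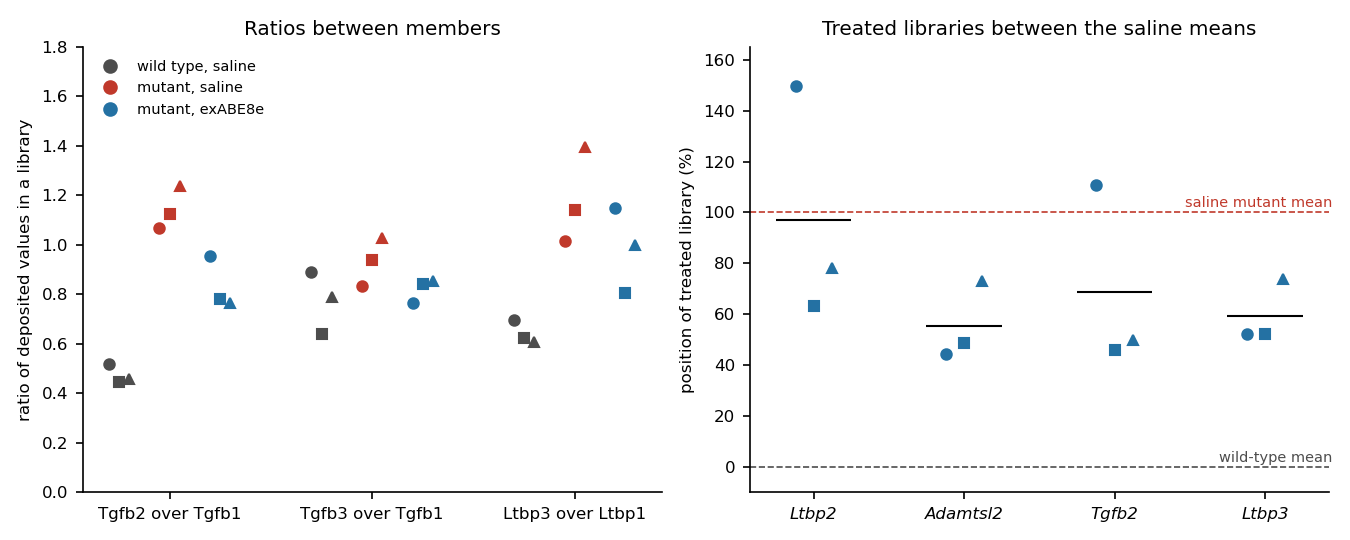
Left, ratios of deposited values within each library (y axis from 0; circle, square and triangle are replicates 1, 2 and 3); right, position of each treated library on a percent scale from the wild-type mean (0) to the saline mutant mean (100), with the mean as a bar. Tgfb2 over Tgfb1 separates all 3 groups, and the treated libraries spread from 63.4% to 150% for Ltbp2, which was chosen partly on these values.

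Treatment was compared in the mutants, to ask what high-dose-exABE8e changes. None of the 6 genes taken by family had groups without overlap, and limma called 0 of the 6. At an unadjusted p under 0.05 were 0 of 6 (8.29% of all genes), and limma without a floor on the variance called 0 of 6. Ltbp2 and Adamtsl2 overlapped too, but they were chosen partly because they stayed high after treatment, so their overlap is a description. Few genes were called at all in this comparison, 0.0147% of 13636 tested, with 0.00733% called higher and 9.82% without overlap. The 6 genes had a median log2 fold change of -0.11 beside -0.02 over all genes, and 2 of 6 were above 0 beside 44.1% of all genes.

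For the ligands, the log2 fold changes with treatment were 0.12 for Tgfb1 (95% interval -0.227 to 0.460), -0.33 for Tgfb2 (-0.819 to 0.158) and -0.06 for Tgfb3 (-0.450 to 0.334). Treated hearts held 41, 25 and 26 of Tgfb2 and 33, 27 and 29 of Tgfb3. For the carriers they were 0.06 for Ltbp1 (-0.269 to 0.397), -0.20 for Ltbp3 (-0.547 to 0.144) and -0.17 for Ltbp4 (-0.501 to 0.161). These intervals leave room for changes in either direction. Treated hearts held 47, 67 and 59 of Ltbp1, 54, 54 and 59 of Ltbp3, and 572, 545 and 617 of Ltbp4.

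Ltbp2 differed by -0.02 on the log2 scale (SE 0.360) between treated and saline mutants, and Adamtsl2 by -0.53 (SE 0.237). The highest treated value of Adamtsl2, 129, exceeded the lowest saline mutant value, 107. Without the 3 libraries with Xist these differences were -0.03 and -0.21.

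Treated mutants were then set against wild type, to ask what remained different after treatment. This comparison shares its wild-type hearts with the comparison of genotype and its treated hearts with that of treatment, so the 3 sets of values are not independent. limma called 0 of the 6 genes taken by family, with 3 of 6 at an unadjusted p under 0.05 (Tgfb2, Tgfb3 and Ltbp3) and 0 of 6 in limma without a floor on the variance. The same 3 genes had groups without overlap. Of 13554 genes tested 0.989% were called, 0.863% were called higher and 14.6% did not overlap. At an unadjusted p under 0.05 were 12.5% of all genes. The median over the 6 genes was 0.36 beside 0.01 over all genes, and 5 of 6 were above 0 beside 55.7% of all genes.

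Tgfb2 was at 30.7 ± 8.96 in treated mutants, 2.24 times the wild-type mean, with a log2 fold change of 1.09 (SE 0.216, limma adjusted p 0.0832). It passed the test in 2 of 18 alternative fits, at an adjusted p of 0.0337 with all genes used for the prior and 0.0348 with all 9 libraries in one fit, in a range up to 0.272. Ltbp3 differed by 0.40 (SE 0.0987, limma adjusted p 0.150) and Tgfb3 by 0.42 (SE 0.132, limma adjusted p 0.247). Tgfb1 (0.32), Ltbp4 (0.25) and Ltbp1 (-0.19) had limma adjusted p-values of 0.507, 0.502 and 0.656. Ltbp2 differed by 2.98 (SE 0.339) and Adamtsl2 by 1.34 (SE 0.133). Both genes were again without overlap, and without the 3 libraries with Xist the values were 2.37 and 1.42.

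The position of a treated library can be read as the percentage of the rise from the wild-type to the saline mutant mean that it still shows. The genes shown were picked on these values or on calls against the same saline mutants, so the percentages are a description. Their SD covers the treated libraries only and leaves out the spread of the saline groups. For Ltbp2 the treated replicates 1, 2 and 3 were at 150%, 63.4% and 78.2% (97.0% ± 46.0, SD, n = 3), and for Adamtsl2 at 44.6%, 48.7% and 73.0% (55.4% ± 15.3). Tgfb2 was at 111%, 45.9% and 50% (68.9% ± 36.3) and Ltbp3 at 52.2%, 52.2% and 73.9% (59.4% ± 12.6). Treated replicate 1 was the library above the saline mutant mean for Ltbp2 and Tgfb2, and it was the lowest, or level with the lowest, of the 3 for Adamtsl2 and Ltbp3. Its Mybpc3 value, 1024, was the lowest of the treated libraries. It was also the treated library with both Xist and Ddx3y, and the part of this in its values was not tested.

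In the authors' deposited table for saline mutants against wild type, the log2 fold changes were 1.41 for Tgfb2, 3.25 for Ltbp2 and 1.86 for Adamtsl2, and these 3 of the 8 genes were in the authors' deposited list of 689 selected genes. In the authors' deposited table for treated mutants against wild type, they were 1.16, 3.30 and 1.35, and the same 3 were in the list of 317. These lists compare with 15779 genes in all. Ltbp2 and Adamtsl2 were chosen partly on values of these same data, so their place in the lists is a description. Of the 6 genes taken by family, Tgfb2 alone was listed. None of the 8 was in the authors' deposited list of 137 genes for treatment. Ltbp3, at 0.55 in the authors' deposited table, was not in any of the lists.

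The genes around the ligands were taken from 7 lists with 82 names, of which 74 genes were tested. In saline mutants 18 rose and 3 fell, or 28.4% called, where 7.7% of all genes were called. The lists were chosen with earlier results of these data known, so this contrast is a description. The counts include Gdf15 and Efemp1, which passed the filter on low values only through the libraries where they were high. In treated against saline mutants limma called 0 of 74, beside 0.0147% of all genes. At an unadjusted p under 0.05 were 15 (20.3%, beside 8.29% of all genes). limma called 0 without a floor on the variance and 1 with all 9 libraries in one fit. In treated mutants against wild type 7 rose, or 9.46%, where 0.989% of all genes were called. The fibroblast markers, which share Dcn, Mfap5 and Col1a2 with these lists, had a median log2 fold change of 0.53 in saline mutants (1 of 7 called) and -0.46 with treatment (0 of 7 called), and their part in the list counts was not tested. Without the 3 libraries with Xist, 14 were called in saline mutants, 0 with treatment and 1 in treated mutants against wild type. Over all genes the shares called were then 4.07%, 0.0146% and 0.0655%. Left-out single libraries gave 13 called in saline mutants without wild type replicate 1, 17 without saline mutant replicate 2 or 3, and 18 to 29 otherwise. Against wild type the 7 calls in treated mutants became 0, 0 and 1 when wild type replicates 1, 2 and 3 were left out in turn, and 2, 2 and 5 when this was done with the treated replicates.

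**Figure D4:**
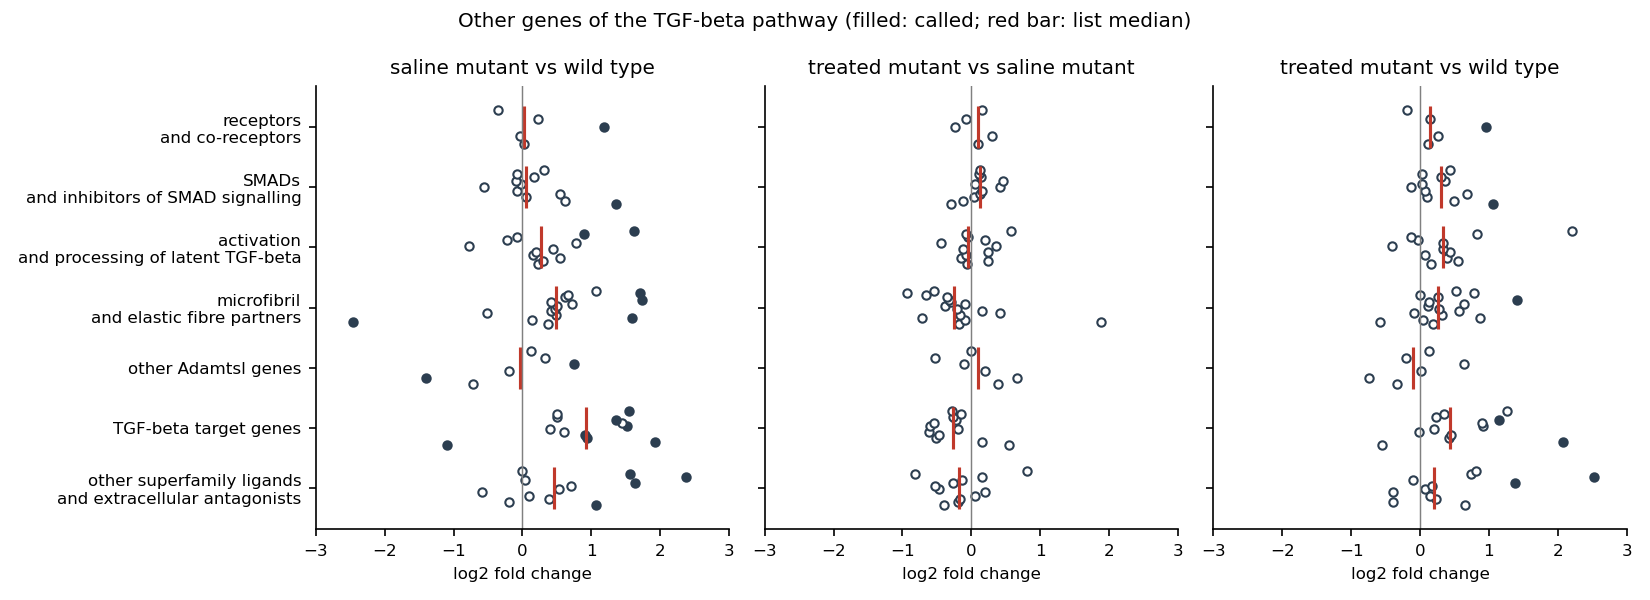
log2 fold change of each tested gene on the 7 lists (x axis) in the 3 comparisons, with called genes filled and the list median as a red bar. Filled points lie mostly to the right of 0 between saline mutant and wild type (18 higher, 3 lower), and there are none between treated and saline mutants.

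Among 5 receptors and co-receptors, 1 rose in saline mutants and 4 were not called, with a list median of 0.02. Over all genes 7.7% were called there, with a median of 0.07, and 0.989% were called in treated mutants against wild type. Tgfbr1, the type I receptor kinase, was 30, 31 and 30 in wild type, 64, 62 and 88 in saline mutants and 61, 65 and 54 in the treated hearts. Both mutant groups were above wild type in every library, with log2 fold changes of 1.19 (SE 0.144, limma adjusted p 0.00171) and 0.96 (SE 0.104, limma adjusted p 0.0221). The call in treated mutants was lost when wild type replicate 1, 2 or 3 (adjusted p 0.0765, 0.0752 and 0.0831) or treated replicate 1 or 2 (0.0580 and 0.0565) was left out.

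Among 11 SMADs and inhibitors of their signalling, 1 rose in saline mutants (list median 0.06) and 1 in the treated hearts against wild type (0.30). Over all genes 7.7% and 0.989% were called, with medians of 0.07 and 0.01, so the count in saline mutants was near that share. The called gene was Bambi in both cases, a pseudoreceptor that blocks TGF-beta signalling. It was at 11.3 ± 1.53 in wild type, 31.0 ± 7.81 in saline mutants and 25 ± 5 in treated mutants. Its limma adjusted p-values were 0.00298 and 0.0443, and the second became 0.0989, 0.148 and 0.153 when wild type replicates 1, 2 and 3 were left out in turn, and 0.0963 and 0.130 for treated replicates 1 and 2.

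Of 12 genes that activate or process latent TGF-beta, 2 rose in saline mutants (list median 0.26), beside 7.7% of all genes called (median 0.07). Tgm2, a transglutaminase that links latent complexes to the matrix, rose from 175 ± 24.1 to 324 ± 15.2 (limma adjusted p 0.00246) and was 313 ± 61.6 in treated mutants. Thbs1, thrombospondin 1, which can activate latent TGF-beta, was 12, 17 and 7 in wild type, 51, 31 and 32 in saline mutants (limma adjusted p 0.0123, 0.0614 without wild type replicate 1 and 0.0712 without the 3 libraries with Xist) and 124, 42 and 33 in the treated hearts. Treated replicate 1, the highest treated library for Ltbp2 and Tgfb2, was also the highest for Thbs1.

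Of 16 microfibril and elastic fibre genes, 3 rose and 1 fell in saline mutants, with a list median of 0.49. Of all genes 7.7% were called there, with a median of 0.07, and 0.989% in treated mutants against wild type. Eln, elastin itself, rose from 77.3 ± 14.0 to 239 ± 71.1 (limma adjusted p 0.00317) and Mfap4 from 46.7 ± 11.4 to 161 ± 66.6 (0.00829, limma adjusted). The Mfap4 call was lost without a floor on the variance (limma adjusted p 0.0631). Eln was 145 ± 42.0 and Mfap4 82.3 ± 28.7 in treated mutants. Their log2 fold changes with treatment were -0.72 and -0.93, and neither was called (limma adjusted p 0.506 for both). Lox, which cross-links elastin and collagen, was 6, 7 and 7 in wild type, 18, 19 and 42 in saline mutants (limma adjusted p 0.00805, and 0.0529 without wild type replicate 1) and 24, 15 and 20 in the treated hearts. It was the 1 gene of this list called in treated mutants against wild type (limma adjusted p 0.0277), and that call was lost without any 1 of the 3 wild-type replicates (0.0989, 0.0937 and 0.0870) or treated replicates 1 and 3 (0.0611 and 0.0503). Efemp1, a fibulin, fell from 7, 6 and 5 to 0, 0 and 1 (limma adjusted p 0.00171), and was 4, 4 and 3 in treated mutants. In saline mutants against wild type it passed the filter on low values through the wild-type libraries alone. Its call there is therefore a description. The log2 fold change of Efemp1, -2.46, depended on the fit and ran from -4.76 to -1.05 over the 17 alternative fits that kept the gene.

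Of the 6 other genes of the Adamtsl family, 1 rose and 1 fell in saline mutants, with a list median of -0.03. The median of all genes was 0.07, and 7.7% of them were called. Adamtsl5 rose from 73.3 ± 2.08 to 124 ± 11.6 (limma adjusted p 0.00319) and was 115 ± 15.1 in treated mutants. Adamtsl3 was 14, 15 and 13 in wild type, 3, 4 and 8 in saline mutants and 7, 9 and 8 in the treated hearts. It was lower in each saline mutant, with a log2 fold change of -1.41 (SE 0.274, limma adjusted p 0.0160) and adjusted p-values of 0.0834 without wild type replicate 1 and 0.0734 without saline mutant replicate 2.

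Of 12 measured TGF-beta target genes, 6 rose and 1 fell in saline mutants (list median 0.92), and 2 rose in treated mutants against wild type (0.43). The shares of all genes called were 7.7% and 0.989%, with medians of 0.07 and 0.01. Ccn2, connective tissue growth factor, was 47, 52 and 59 in wild type, 176, 171 and 271 in saline mutants and 364, 178 and 175 in the treated hearts. It was called in both comparisons with wild type (limma adjusted p 0.000602 and 0.0277), and the second call was lost when any 1 wild-type library was left out (0.0989, 0.0940 and 0.0870) or when treated replicate 2 was (0.0565). Without the 3 libraries with Xist, 3 target genes were called in saline mutants and 1 in the treated hearts against wild type. The shares of all genes called were then 4.07% and 0.0655%.

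Timp1, an inhibitor of metalloproteinases, rose from 2, 2 and 1 to 7, 6 and 7 (limma adjusted p 0.00302) and was 13, 2 and 5 in treated mutants. The Timp1 call was lost with all 9 libraries in one fit (limma adjusted p 0.0645). Acta2, smooth muscle actin, which marks myofibroblasts as well as vessels, fell from 257, 328 and 189 to 118, 118 and 117 (limma adjusted p 0.00721, and 0.0661 without the 3 libraries with Xist) and was 186, 170 and 161 in treated mutants. It thus moved against the other named targets. The smooth muscle and pericyte markers, which include Acta2, summed to 1421 to 1735 in wild type, 1168 to 1388 in saline mutants and 1142 to 1426 in the treated hearts, and their part in the Acta2 values was not tested.

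Of 18 other ligands of the superfamily and extracellular antagonists, 12 were tested and 4 rose in saline mutants (list median 0.46). Beside these stand 7.7% of all genes called and a median of 0.07. Gdf15, a stress-induced ligand, stood at 0 in every wild-type library of the tables, at 3, 4 and 6 in saline mutants and at 11, 3 and 3 in the treated hearts. Inhba, the activin A subunit, rose from 2.33 ± 1.53 to 8.33 ± 2.08 (limma adjusted p 0.0230, and 0.109, 0.0542 and 0.0887 without wild type replicates 1 and 3 and saline mutant replicate 3), and Fstl3, an activin antagonist, from 1 in each wild-type library to 5, 4 and 7 (limma adjusted p 0.00248). Bgn, biglycan, a proteoglycan that binds TGF-beta, rose from 374 ± 64.5 to 800 ± 256, with a limma adjusted p of 0.0217. That call was lost with wild type replicate 1 or 3 left out (0.0847 and 0.0726) and with saline mutant replicate 2 left out (0.0700). The adjusted p without the 3 libraries with Xist was 0.0628 for Bgn and 0.185 for Inhba. Treated mutants were at 4.33 ± 1.53 for Inhba, 4.33 ± 1.53 for Fstl3 and 592 ± 111 for Bgn. Their log2 fold changes with treatment were -0.82, -0.26 and -0.40, and none was called. Gdf15 passed the filter through the mutant libraries alone, so its calls are a description. Its call in saline mutants was lost with a pseudocount of 0.1 (limma adjusted p 0.111), as was that in the treated group (0.269). In treated mutants against wild type, with 0.989% of all genes called, Gdf15 and Fstl3 were called at limma adjusted p-values of 0.0479 and 0.0472. Without any 1 of the wild-type libraries these calls were lost (0.148, 0.148 and 0.153 for Gdf15 and 0.156, 0.148 and 0.155 for Fstl3), as they were without treated replicate 1 (0.0734 and 0.120), treated replicate 2 (0.0882 and 0.138) and, for Gdf15, treated replicate 3 (0.0572).

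The genes whose pattern was most like that of Ltbp2 or Adamtsl2 were found among the 8785 genes whose mean value reached 10, by Pearson's r of log2(value + 1) over the 9 libraries. The libraries fall into 3 groups, so r mostly reflects differences shared between groups and is given as a description. For Ltbp2 the 5 highest were Ankrd1 (0.9886), Ccn2 (0.9771), the gene listed as X1700025G04Rik (0.9727), Gnao1 (0.9691) and Myh7b (0.9682). Ankrd1, a cardiomyocyte stress protein of the sarcomere and nucleus, was 411, 591 and 663 in wild type, 1811, 2695 and 3291 in saline mutants and 2897, 1727 and 1594 in the treated hearts. Like Ltbp2 it was highest among the treated hearts in replicate 1 and among the saline mutants in replicate 3.

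For Adamtsl2 the 5 most like genes were Itgbl1 (0.9889), Rtn4 (0.9769), Pfkp (0.9747), Sms.ps (0.9703) and Ubxn4 (0.9691). Itgbl1, a secreted protein with integrin-like repeats, was 15, 20 and 16 in wild type, 44, 65 and 93 in saline mutants and 41, 37 and 44 in the treated hearts. The 2 sets of 5 genes had no gene in common. Between the 8 genes themselves, r was 0.9143 for Ltbp2 with Adamtsl2, 0.9289 for Ltbp2 with Tgfb2 and 0.9463 for Adamtsl2 with Ltbp3, and Ltbp1 was negative with both (-0.6154 and -0.5213).

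**Figure D5:**
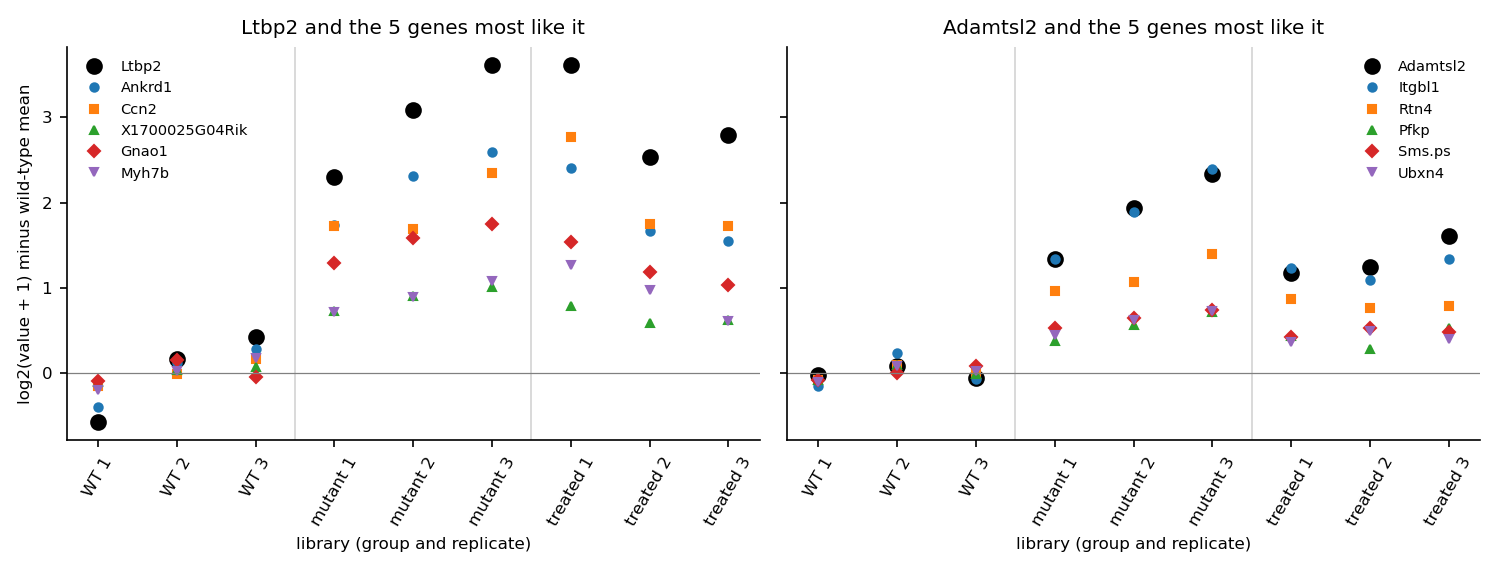
log2(value + 1) minus its wild-type mean (y axis) in each of the 9 libraries (x axis) for Ltbp2 and Adamtsl2 in black and the 5 genes most like each in colour. Ltbp2 is level in saline mutant replicate 3 and treated replicate 1, both at 54, whereas Adamtsl2 is highest in saline mutant replicate 3, at 215.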

How the data were processed

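Polyadenylated RNA from mouse heart was sequenced by the study in 9 libraries. Per the labels' protocols, flash-frozen heart tissue was extracted with a column kit, and mRNA bound to oligo(dT) beads was fragmented for library construction. The submitters' processing notes name HISAT2, HTSeq, DESeq2 and the build mm10, without versions or the strand setting. The deposited values per gene and library are treated as a score, because they are whole numbers that sum to between 999152 and 999382 in each library; the unit is not named, and a per-million unit rounded by the authors matches these totals better than read counts. Depth and counting error are therefore unknown, and precision rests on 3 libraries per group. The authors' deposited log2 fold changes come from their own comparisons. The authors' deposited p-value columns were used only through the lists of selected genes the authors made.

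Values were read from 3 tables and agreed between them for every gene and library. Each pair of groups was fitted separately on log2(value + 1) by limma 3.58.1 under R 4.3.3, for genes with a mean of at least 1. Residual variance was held at or above the rounding variance (1/12 on the value scale), with a trended prior whose degrees of freedom came from genes with a mean of at least 30. Adjusted p-values are Benjamini-Hochberg over all genes tested, with a threshold of 0.05. The procedure was run on simulated data with independent noise drawn from its own standard errors. That simulation leaves out deviations shared by the genes of a library. Standard deviations are over 3 libraries.

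The members, the pathway and marker lists, the variance step and the alternatives were chosen with earlier results of these data known. The genes named are every member, Mybpc3, from each pathway list up to 4 called genes with the smallest p in a comparison, and the 5 genes most correlated with Ltbp2 or Adamtsl2. A gene that this rule named on the target list is not reported here, although it is included in the list's counts and median. For each comparison 18 alternative fits were made (variance step, pseudocount, filter, scaling, replicate block, libraries left out). Symbols are as deposited, where a hyphen is written as a dot and a name that begins with a digit has an X before it. Promoters came from a RefSeq table on GRCm38.p6. They were trimmed so that no base at or after the gene start, in RefSeq or in GENCODE M21, is shown.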

Additional observations from a re-analysis of the deposited data

How the results depend on the processing

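With 3 libraries per group of unknown depth, small differences could not be resolved. Over 18 alternative fits per comparison, Tgfb1, Tgfb3, Ltbp1 and Ltbp4 were called in none, and Tgfb2 was called in all of them between saline mutant and wild type. Of the 6 genes taken by family, 2 were called there, and 1 without the floor on the variance, without the filter, with the replicate block and without the 3 libraries with Xist, and 1 to 2 when 1 library was left out. Against wild type, treated mutants had 0 called, and 1 in each of the fits with all genes used for the prior and with all 9 libraries together. With treatment 0 were called in any fit. The cause of these differences was not tested. All the results that reversed were log2 fold changes with treatment that were not called. Leaving out 1 library gave ranges from -0.00783 to 0.212 for Tgfb1, -0.204 to 0.107 for Tgfb3, -0.0501 to 0.201 for Ltbp1, -0.219 to 0.0565 for Tgm2, -0.529 to 0.0605 for Lox, -0.189 to 0.371 for Ccn2, -0.851 to 0.260 for Timp1 and -0.376 to 0.416 for Gdf15. For Ltbp2, which differed by -0.02 with treatment and was not tested, the range was -0.369 to 0.292, so that its sign also turned. Without the 3 libraries with Xist the value was 0.0298 for Tgfb3, -0.0934 for Thbs1 and -0.161 for Gdf15. Other scalings moved the median of all genes by at most 0.0908 but changed the split of calls. Between saline mutant and wild type 1050 genes were called, 59.2% of them higher (622 and 428), against 47.6% with upper-quartile factors (622 and 684). Between treated mutant and wild type it was 87.3% of 134, against 71.6% with those factors. With the rounding floor off, 858, 32 and 77 genes were called in place of 1050, 2 and 134, and over all alternatives these counts lay between 506 and 1306, 2 and 35, and 1 and 243. Of the 74 genes on the pathway lists, 13 to 29, 0 to 1 and 0 to 13 were called, in place of 21, 0 and 7. Of the 5 genes most like Adamtsl2, 1 was kept when genes with a mean of at least 1 were ranked, and 3 of the 5 most like Ltbp2 were kept with a pseudocount of 0.1 or 5.

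The labels number the replicates from 1 to 3 in each group but do not say that a number marks a shared litter or day. Deviations of same-numbered libraries had correlations of -0.37 to -0.104 for saline mutant and wild type, -0.0696 to 0.197 for treated and saline mutant and 0.0274 to 0.566 for treated mutant and wild type, so the numbers were not taken to pair the libraries. With the replicate block, 824, 35 and 35 genes were called in the 3 comparisons, 1 of the 6 genes taken by family was called between saline mutant and wild type, and the adjusted p of Ltbp3 was 0.0594.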
